A study of Mus musculus with 9 samples.

Results

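Genes that sense cholesterol and govern its uptake, transfer and efflux were followed in mouse NIH-3T3 fibroblasts, an embryonic fibroblast line, after miR-378 was supplied or blocked. They were the 9 genes Srebf1, Srebf2, Scap, Insig1, Insig2, Mylip, Npc1, Stard4 and Abca1, taken by name among 19938 genes that had a probe set of their own. Each was read by 1 such probe set, and all 9 passed the filter on low values, which left 11963 genes for testing. The cells were transfected with a miR-378 mimic, with a miR-378 inhibitor or with a RISC-free siRNA as the control, a duplex that the silencing machinery does not take up. Every group had 3 arrays, received 25 nM RNA with the reagent DharmaFECT 1 in serum-containing medium, and was sampled at 48 hours. All groups therefore share the line, the serum, the reagent and the transfection, and no mimic or inhibitor of another sequence is among the samples. RNA came from whole cultures, so fewer cells of a kind and less RNA per cell cannot be told apart. Values are log2 expression values per probe set, so a difference of 1 is a doubling, and levels of different genes are not set against each other.

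Cells hold their cholesterol steady by feedback. SREBP precursors, encoded by Srebf1 and Srebf2, sit in the endoplasmic reticulum bound to the escort protein SCAP, and when sterols are scarce SCAP carries them to the Golgi, where proteases release the active transcription factor. When sterols are plentiful, INSIG proteins hold SCAP back. Sterol excess also activates LXR receptors, which raise the efflux pump gene Abca1 and Mylip, whose product (also called IDOL) marks lipoprotein receptors for degradation. NPC1 exports cholesterol from lysosomes, and STARD4 carries sterol between membranes in the cytosol.

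The labelled cell type was borne out by its markers, since all 9 fibroblast markers passed the level filter, with array medians between 10.17 and 10.61. Of 18 markers of macrophages, epithelium, endothelium, muscle, adipocytes and hepatocytes, 7 passed the filter of 3.86, and the array medians of all 18 lay between 3.72 and 3.82. The summed signal of all 18, a measure unlike these medians, lay between 8.01 and 8.05 on mimic arrays, 7.96 and 8.03 on inhibitor arrays and 8.03 and 8.04 on control arrays (log2). None of the 7 was called in any comparison (limma). Among the fibroblast markers, the surface antigen gene Thy1 rose with the mimic (0.38; limma, adjusted p = 0.00823) and the collagen gene Col3a1 fell with the inhibitor (-0.22; adjusted p = 0.0427). Between mimic and inhibitor, Col3a1 (0.319), S100a4 (0.231) and Thy1 (0.216) were higher with the mimic and Pdgfrb (-0.265) lower (limma, adjusted p of at most 0.0494). Of all genes tested, 26.8% were called in that comparison. An array listing has no true zero, so the low values of the 18 markers of other cell types cannot be told from background. Mimic 3 and inhibitor 1 lay at the ends of the set, at scores of -20.50 and 20.88 on a first principal component that held 60.5% of the variance, against -4.38 to -2.78 for the controls. The 75th percentile over all probe sets was 5.55 on mimic 3 and 5.76 on inhibitor 1, and 5.63 to 5.69 on the other 7. Where a call of a named gene other than these markers was lost without either array, its value without that array is given.

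With the mimic, 1 of the 9 genes changed, and it was Stard4, which fell. Stard4 (probe set 10458033) stood at 6.79, 6.84 and 6.72 on the mimic arrays, against 7.18, 7.16 and 7.17 on the control arrays. Every mimic array thus lay below every control array, by more than the spread within either group. The mean was 6.78 ± 0.06 with the mimic and 7.17 ± 0.01 in the controls (SD, n = 3). The difference was -0.39 ± 0.06 on the log2 scale (SE; limma, adjusted p = 0.00509), or 0.764 of the control level. Of the 11963 genes tested, 1.76% changed by more. The call held in all 9 fits that left out 1 array, with an adjusted p of at most 0.0335 (limma), and without mimic 3 the log2 fold change was -0.36. For comparison, 2.45% of all genes tested fell with the mimic and 3.55% changed in either direction, so a count of 1 in 9 is not read as a property of the set.

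**Figure D1:**
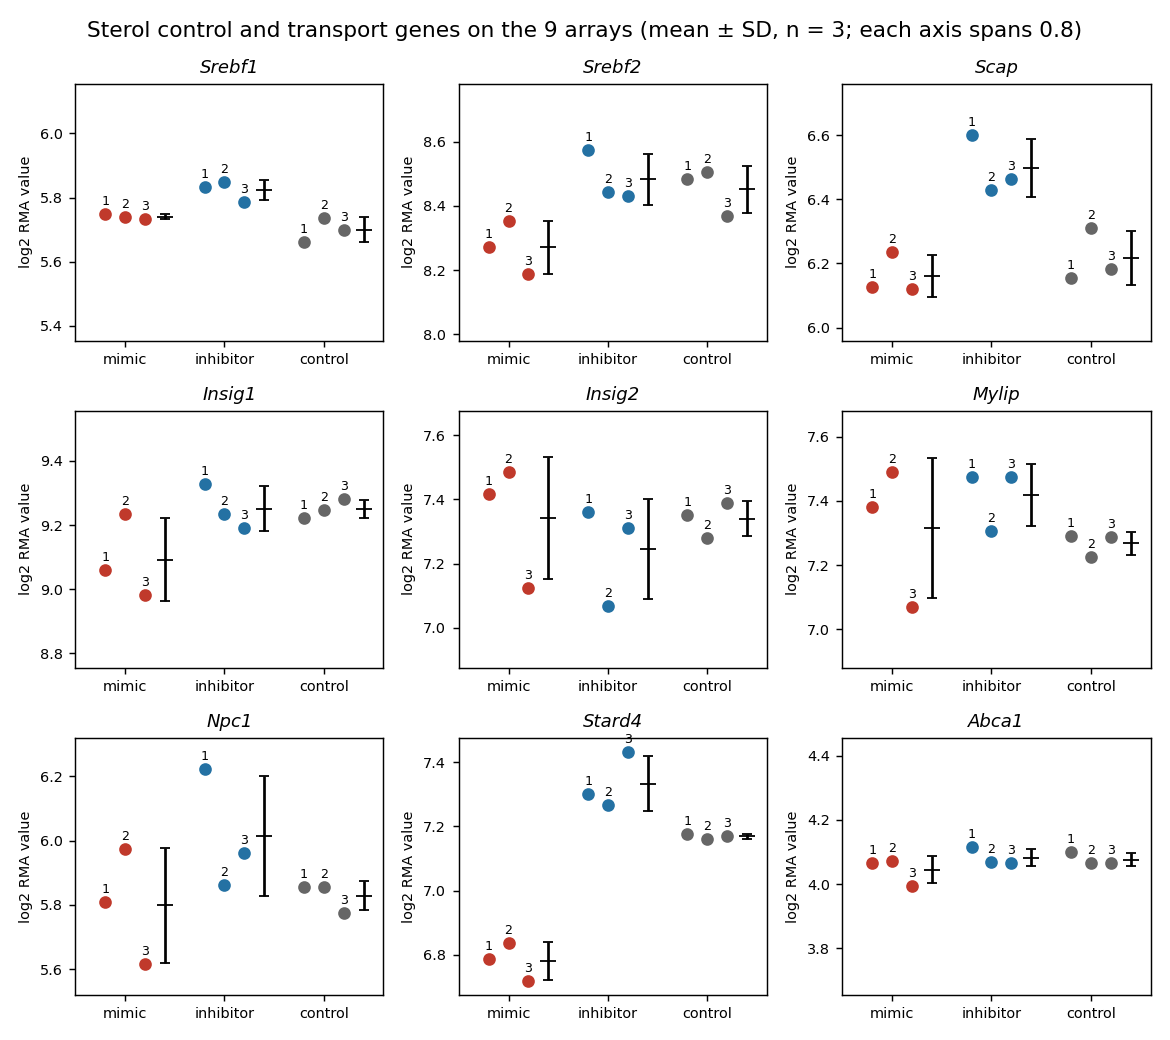
Log2 expression values (vertical axis, each spanning 0.8) of the 9 genes on the mimic, inhibitor and control arrays; numbered points are replicates and the bar to their right is the mean ± SD (n = 3). Stard4 is the gene whose mimic arrays (6.72 to 6.84) lie clear below both other groups, and mimic 3 is the lowest mimic array in each of the 9 panels.

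With the inhibitor, Stard4 pointed the other way. It stood at 7.30, 7.27 and 7.43 on the inhibitor arrays, against 7.18, 7.16 and 7.17 on the control arrays, and so the groups did not overlap here either. The log2 fold change of 0.16 ± 0.06 (SE) did not pass the threshold (limma, adjusted p = 0.0771, 95% interval 0.04 to 0.29), and it passed without mimic 3, whose absence changes only the estimate of the spread (limma, adjusted p = 0.0436). After quantile normalization it was 0.075 (limma, adjusted p = 0.382). Compared directly, Stard4 was lower with the mimic than with the inhibitor by 0.55 ± 0.06 (SE; log2 fold change -0.55, limma, adjusted p = 0.000121), with means of 6.78 and 7.33. This was the widest gap among the 9 genes, and 3.98% of all genes tested had a wider one.

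Among the genes of the sensing machinery, Scap, the escort that carries SREBP precursors to the Golgi, was the member that rose with the inhibitor. Scap (probe set 10589511) stood at 6.60, 6.43 and 6.46 on the inhibitor arrays, against 6.16, 6.31 and 6.18 on the control arrays. All inhibitor arrays lay above all control arrays, and inhibitor 1 was highest. The mean was 6.5 ± 0.09 with the inhibitor and 6.22 ± 0.08 in the controls (SD, n = 3). Scap was thus 0.28 ± 0.07 higher (log2, SE; limma, adjusted p = 0.0163), and 12.1% of all genes tested changed by more. The difference was 0.23 without inhibitor 1 and did not pass the threshold there (limma, adjusted p = 0.057), nor without control 1 (0.0732) or control 3 (0.069). After quantile normalization it was 0.18 and passed (limma, adjusted p = 0.0369). With the mimic, Scap stood at 6.13, 6.24 and 6.12, which overlaps the controls (log2 fold change -0.06, 95% interval -0.20 to 0.09; limma, adjusted p = 0.75). Scap was lower with the mimic than with the inhibitor by 0.34 (log2 fold change -0.34 ± 0.07, SE; limma, adjusted p = 0.00373), a call that held in all 9 fits with 1 array left out.

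Srebf2 encodes SREBP-2, the form that drives cholesterol synthesis and uptake genes. It (probe set 10425695) stood at 8.27, 8.35 and 8.19 on the mimic arrays, at 8.57, 8.44 and 8.43 on the inhibitor arrays and at 8.48, 8.50 and 8.37 on the control arrays. The mimic arrays lay below all others, while the inhibitor and control arrays overlapped. Against the controls the mimic difference was -0.18 ± 0.06 (log2, SE) and did not pass the threshold over all genes (limma, unadjusted p = 0.0171, adjusted p = 0.182). Against the inhibitor it was -0.21 ± 0.06 (SE; limma, adjusted p = 0.0329). That call held in 4 of 9 fits with 1 array left out, and without inhibitor 1 the difference was -0.17 (limma, adjusted p = 0.113). Without mimic 3 it was also -0.17 (adjusted p = 0.0836), and after quantile normalization -0.14 (adjusted p = 0.0575). A second probe set lists Srebf2 among 4 genes, cannot be assigned to one of them and was not used.

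Srebf1 encodes SREBP-1, the form tied to fatty acid synthesis. It stood at 5.75, 5.74 and 5.73 on the mimic arrays, at 5.83, 5.85 and 5.79 on the inhibitor arrays and at 5.66, 5.74 and 5.70 on the control arrays. The inhibitor arrays were the highest 3 of the 9, and the difference of their mean from the controls, 0.12 ± 0.05 (log2, SE), did not pass the threshold (limma, unadjusted p = 0.0202, adjusted p = 0.0969). It passed narrowly when genes with low values were kept in the test (limma, adjusted p = 0.0472). With the mimic the difference was 0.04 (95% interval -0.06 to 0.14; limma, adjusted p = 0.736).

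The INSIG proteins keep SCAP in the endoplasmic reticulum, and Insig1 is itself an SREBP target, so that the feedback loop reports on its own activity. Insig1 stood at 9.06, 9.24 and 8.98 on the mimic arrays, at 9.33, 9.24 and 9.19 on the inhibitor arrays and at 9.22, 9.25 and 9.28 on the control arrays. Mimic 1 and mimic 3 lay below every control, while mimic 2 lay among them. The mimic difference against the controls was -0.16 ± 0.07 (log2, SE; limma, unadjusted p = 0.0424, adjusted p = 0.29), and it was -0.10 without mimic 3 and -0.23 without mimic 2. Against the inhibitor the difference was also -0.16 and did not pass (limma, adjusted p = 0.112), but without mimic 2 it was -0.23 and passed (adjusted p = 0.0165). Its paralog Insig2, which is not under the same SREBP feedback, stood at 7.42, 7.48 and 7.13 with the mimic, at 7.36, 7.07 and 7.31 with the inhibitor and at 7.35, 7.28 and 7.39 in the controls. The groups overlapped in every comparison of Insig2, with log2 fold changes of 0.00 for the mimic (95% interval -0.22 to 0.22) and -0.10 for the inhibitor (-0.32 to 0.13), neither past the threshold (limma, adjusted p = 0.994 and 0.597). After quantile normalization Insig2 was higher with the mimic than with the inhibitor, by 0.22 (limma, adjusted p = 0.0327), against 0.10 in the values as deposited (adjusted p = 0.508). Without mimic 3 and inhibitor 1 together it was 0.26 and passed as well (adjusted p = 0.0347), while without mimic 3 alone it was 0.20 and did not (adjusted p = 0.0923).

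**Figure D2:**
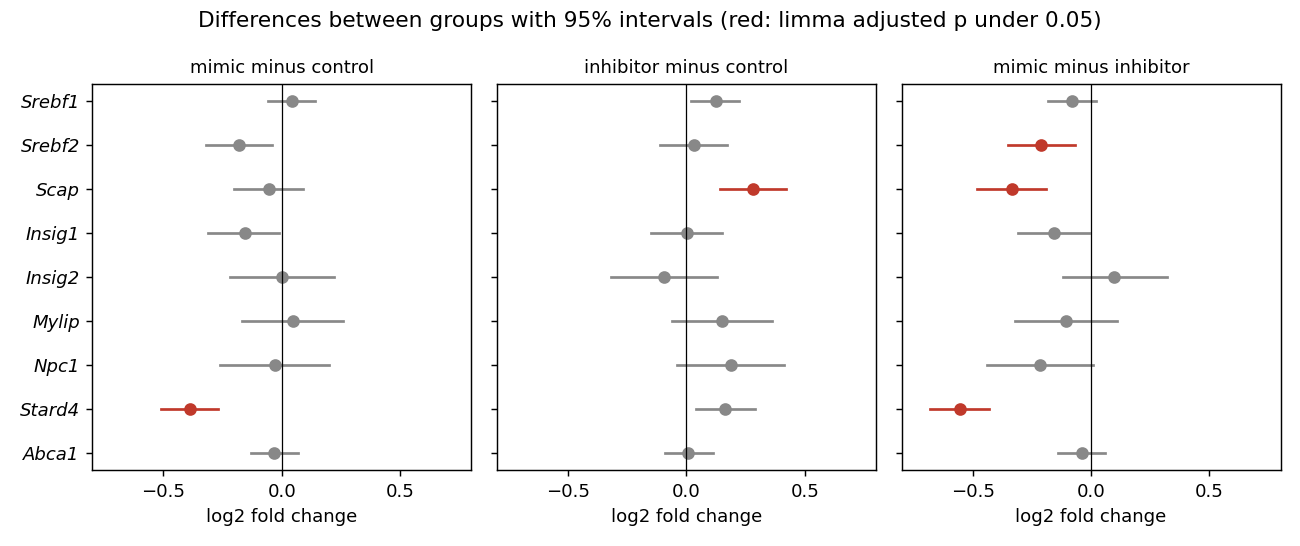
Log2 fold changes of the 9 genes (points) with 95% intervals (lines) for mimic minus control, inhibitor minus control and mimic minus inhibitor; red marks a limma adjusted p under 0.05. Stard4 is called in the first panel, Scap in the second, and Srebf2, Scap and Stard4 in the third.

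The promoter sequences of the called regulator genes, with that of Insig1 as the feedback target, are shown because SREBP-2 is known to act through short sterol regulatory elements near NF-Y and Sp1 boxes. They are RefSeq windows on GRCm38.p6, from 250 bases before to 50 bases after the gene's start, given 5′ to 3′ on the gene's strand. Capitals mark matches on either strand to TCACNCCAC (the core of a sterol regulatory element), TCACCCCA (a shorter form added after the sequences had been read), CCAAT (NF-Y), CACGTG (E-box) and GGGCGG (Sp1). For Scap, which has 2 overlapping windows, the one that starts further upstream is shown.
Srebf2, chr15:82147019-82147318, plus strand: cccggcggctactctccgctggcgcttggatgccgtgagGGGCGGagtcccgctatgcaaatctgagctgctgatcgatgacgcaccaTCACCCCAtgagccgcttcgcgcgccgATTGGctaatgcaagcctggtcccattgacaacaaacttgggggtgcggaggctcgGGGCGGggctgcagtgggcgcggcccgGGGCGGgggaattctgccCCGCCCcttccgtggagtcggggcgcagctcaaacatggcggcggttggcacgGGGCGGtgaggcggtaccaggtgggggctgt
Scap, chr9:110333038-110333337, plus strand: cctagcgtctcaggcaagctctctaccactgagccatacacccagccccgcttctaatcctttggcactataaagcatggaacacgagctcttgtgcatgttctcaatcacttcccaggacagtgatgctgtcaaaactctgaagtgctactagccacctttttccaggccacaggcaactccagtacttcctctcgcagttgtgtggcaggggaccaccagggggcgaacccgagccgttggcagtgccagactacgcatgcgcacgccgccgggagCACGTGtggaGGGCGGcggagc
Insig1, chr5:28071162-28071461, plus strand: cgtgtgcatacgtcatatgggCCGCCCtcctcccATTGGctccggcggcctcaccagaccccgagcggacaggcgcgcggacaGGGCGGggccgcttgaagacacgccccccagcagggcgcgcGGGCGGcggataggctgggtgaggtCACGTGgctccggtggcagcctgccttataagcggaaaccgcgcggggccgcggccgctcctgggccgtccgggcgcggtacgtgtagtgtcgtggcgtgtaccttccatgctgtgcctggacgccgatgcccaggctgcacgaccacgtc

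TCACNCCAC was found in none of the 12 windows available for 7 of the 9 genes, and in 1.24% of 32851 promoter windows outside the chromosome left out here. Of 18 windows of the sterol synthesis genes only 1 held it, so a window without a match is not read as lacking a sterol element. TCACCCCA was found in the Srebf2 window, 1 of the 12, and in 1.56% of all windows. By gene, since windows of 1 gene can overlap and both Scap windows hold an E-box, CCAAT was found for 5 of the 7 genes, CACGTG for 3 and GGGCGG for 7. Counted by window, they were found in 6, 4 and 10 of the 12, against 37.4%, 7.15% and 35.7% of the windows of all genes. These shares are per window and not per gene. The Srebf2 window thus holds the shorter element, 1 CCAAT box and 5 Sp1 boxes, that of Scap 1 E-box and 1 Sp1 box, and that of Insig1 1 CCAAT box, 1 E-box and 3 Sp1 boxes. These are letter matches, and no binding was measured.

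Srebf2 also hosts the miR-33 hairpin in an intron, and miR-33 is known to repress Abca1, so the locus links the SREBP gene to the efflux pump. The mature 5′ arm is shown with its seed, bases 2 to 8, in capitals (RefSeq, GRCm38.p6, chr15:82198127-82198147, plus strand).
mmu-miR-33-5p: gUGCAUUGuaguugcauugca

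The probe set of Mir33 stood at 3.09 to 3.12 on the mimic arrays, 3.09 to 3.13 on the inhibitor arrays and 3.09 to 3.11 on the control arrays, below the level filter, so it was not tested. It reads the locus and not the mature microRNA. Abca1, the pump that loads cholesterol onto apolipoprotein A-I, was also near the bottom of the scale. It stood at 4.06, 4.07 and 4.0 on the mimic arrays, at 4.11, 4.07 and 4.06 on the inhibitor arrays and at 4.10, 4.06 and 4.06 on the control arrays, just above the filter value of 3.86. The log2 fold changes were -0.03 (95% interval -0.13 to 0.07) with the mimic and 0.01 (-0.09 to 0.11) with the inhibitor, and neither passed the threshold (limma, adjusted p = 0.806 and 0.951). A signal this close to background understates any change there may be.

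Mylip, the other LXR target among the 9, stood at 7.38, 7.49 and 7.07 on the mimic arrays, at 7.47, 7.31 and 7.48 on the inhibitor arrays and at 7.29, 7.22 and 7.29 on the control arrays. Mimic 1 and mimic 2 lay above every control and mimic 3 below every control, so the mean difference of 0.05 (log2; limma, adjusted p = 0.873) averages arrays that point in opposite directions. Without mimic 3 it was 0.17, still short of the threshold (limma, adjusted p = 0.202). The inhibitor arrays all lay above the controls, by 0.15 on average (95% interval -0.06 to 0.36; limma, adjusted p = 0.349).

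Npc1, the lysosomal exporter, stood at 5.81, 5.97 and 5.62 on the mimic arrays, at 6.22, 5.86 and 5.96 on the inhibitor arrays and at 5.86, 5.86 and 5.78 on the control arrays. The mimic arrays spread on both sides of the controls, and the inhibitor arrays lay above them, inhibitor 1 clearly and inhibitor 2 by less than the rounding. The log2 fold changes of -0.03 with the mimic and 0.19 with the inhibitor did not pass the threshold (limma, adjusted p = 0.929 and 0.273), and without inhibitor 1 that of the inhibitor was 0.08. The mimic-minus-inhibitor difference of -0.22 (limma, adjusted p = 0.151) was -0.11 without inhibitor 1, and -0.30 without mimic 2, where it passed (limma, adjusted p = 0.0458).

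Read array by array, the 9 genes shared a pattern that went with the arrays as well as with the treatments. Mimic 3 was the lowest of the 3 mimic arrays in all 9 genes, and it was so in 57.7% of all genes tested. Mimic 2 was the highest in 8 of the 9, against 51.3% of all genes. Inhibitor 1 was the highest of its group in 6 of the 9, against 50.8% of all genes. Against the control mean, the median of the 9 genes was -0.02 on mimic 1, 0.02 on mimic 2 and -0.21 on mimic 3, and 0.13, 0.03 and 0.09 on inhibitor arrays 1, 2 and 3 (log2). Over all genes tested these medians ran from -0.05 on mimic 3 to 0.02 on inhibitor 1. How much the state of mimic 3 contributes to the low values of the 9 genes there was not tested. Stard4 differed from the control mean by -0.38, -0.33 and -0.45 on mimic arrays 1, 2 and 3, so its low level does not rest on mimic 3.

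**Figure D3:**
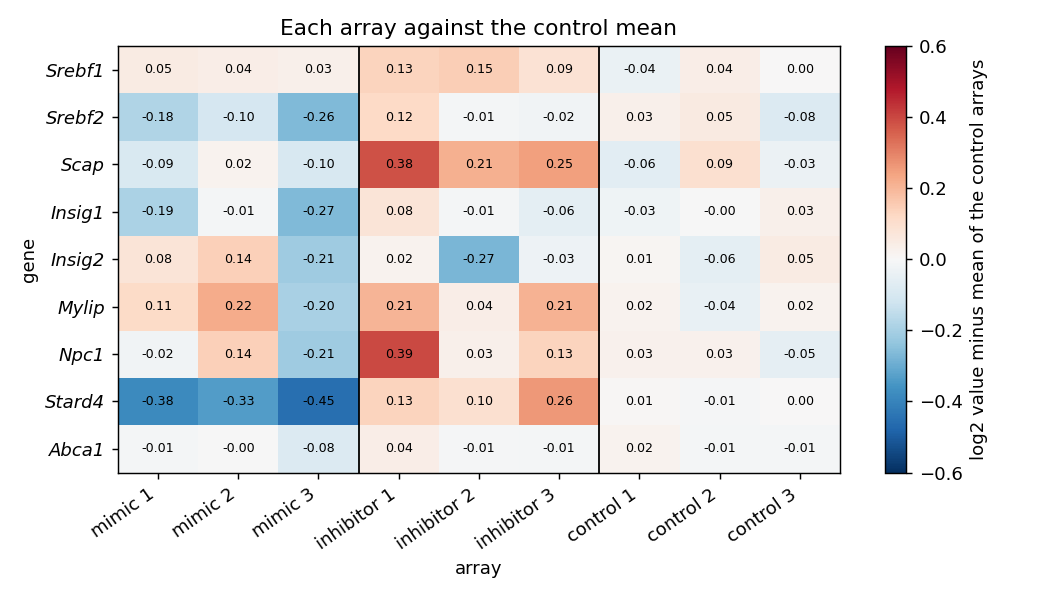
Log2 value of each of the 9 genes (rows) on each array (columns) minus the mean of the 3 control arrays; blue is lower and red higher, and the number in each cell is the difference. The Stard4 row runs from -0.45 to -0.33 on the mimic arrays and the Scap row from 0.21 to 0.38 on the inhibitor arrays, and the mimic 3 column is below 0 for 8 of the 9 genes.

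The spread within groups differed between genes. In the mimic group the SD ran from 0.01 for Srebf1 to 0.22 for Mylip, with a median of 0.08 over the 9 genes and 0.09 over all genes tested. In the inhibitor group it ran from 0.03 to 0.19 (medians 0.09 and 0.08), and in the controls from 0.01 to 0.08 (medians 0.04 and 0.05). The intervals are therefore widest for Npc1, Insig2 and Mylip, whose standard errors were 0.10 each, and narrowest for Srebf1 and Abca1.

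Counted together, 0 of the 9 genes rose and 1 fell with the mimic (3 with an unadjusted p under 0.05, limma), with a median log2 fold change of -0.03 against -0.01 over all genes tested. The mimic and control groups did not overlap in 2 of the 9, both lower, where 12.7% of all genes were lower without overlap, 8.67% higher and 21.3% either. Of all genes, 1.1% rose. With the inhibitor 1 rose and 0 fell (3 with an unadjusted p under 0.05, limma), where 11.1% of all genes rose, 3.76% fell and 14.9% did either, and the median was 0.12 against 0.01. The inhibitor and control groups did not overlap in 5 of the 9 (Srebf1, Scap, Mylip, Npc1 and Stard4), all higher, where 24.9% of all genes were higher without overlap, 12.8% lower and 37.7% either. Between mimic and inhibitor 3 of the 9 were lower with the mimic and 0 higher, where 19.9% of all genes were lower, 6.91% higher and 26.8% either, and the median was -0.16 against -0.02. The mimic and inhibitor groups did not overlap in 4 of the 9 (Srebf1, Srebf2, Scap and Stard4), all lower with the mimic, where 25.7% of all genes were lower without overlap, 12.9% higher and 38.6% either. The control arrays are shared by the first pair of comparisons. The comparison of mimic with inhibitor reuses the mimic and inhibitor arrays of that pair, so its calls are not independent of theirs. The count of members called with the inhibitor was 0 without inhibitor 1, control 1 or control 3 and 2 without mimic 3.

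The rest of the pathway was read from 6 lists of 73 genes, of which 59 were tested, and none of the lists contains the 9 genes. With the mimic, 2.45% of all genes tested fell and 1.1% rose, and 6311 of 11963 lay below 0, with a median of -0.01. In sterol synthesis, 8 of 17 enzymes tested fell with the mimic, 0 rose, and all 17 had a log2 fold change below 0, with a median of -0.31. Idi1 (-0.51), Sqle (-0.41), Mvk (-0.39) and Hmgcs1 (-0.38), enzymes from the first steps to squalene epoxidation, fell most (limma, adjusted p of at most 0.0238), a range that takes in the -0.39 of Stard4. Sqle and Mvk kept their calls in all 9 fits without 1 array, Idi1 in 7 and Hmgcs1 in 5. Hmgcs1 also lost its call after median centring, in the fit of 6 arrays and with the replicate block. The number that fell was 3 without control 1 or control 3, 5 without control 2, 4 without mimic 1 and 9 without mimic 3. All 17 stayed below 0 in those fits except that without mimic 3, where 16 did and the median was -0.26. After quantile normalization the median was -0.28, with 16 of 17 below 0. With the inhibitor, Sc5d, a sterol desaturase gene, rose by 0.27 (limma, adjusted p = 0.016), 0 fell, and the median was -0.00. Of all genes tested, 11.1% rose and 3.76% fell with the inhibitor. The Sc5d call was lost without inhibitor 1 (0.22, adjusted p = 0.0541), inhibitor 3, control 2 or control 3. After quantile normalization the median was -0.08, and Dhcr7 and Pmvk were called as lower with the inhibitor. Other alternatives went the other way. Hsd17b7 of the same list was called as higher with the inhibitor without mimic 3 (0.21; limma, adjusted p = 0.0144) and in the fit of 6 arrays (adjusted p = 0.0161).

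Of all genes tested, 2.45% fell and 1.1% rose with the mimic. Among 12 fatty acid synthesis genes tested, which SREBP-1 is known to drive, 4 fell with the mimic and 0 rose, with a median of -0.23. They were the malic enzyme gene Me1 (-0.53), the elongase gene Elovl6 (-0.47), Acly (-0.32), which makes cytosolic acetyl-CoA, and the desaturase gene Fads2 (-0.24; limma, adjusted p of at most 0.0339). Of 9 fits without 1 array, Me1 kept its call in 6, Acly in 5, Elovl6 in 4 and Fads2 in 2. Under the 10 other alternatives Me1 and Acly kept theirs in all, Fads2 in 7 and Elovl6 in 4. The number that fell was 0 without control 1, control 2 or control 3, 1 without mimic 1, 6 without mimic 2, 3 without mimic 3 and 2 without inhibitor 3. Without mimic 3 the lost call was Fads2 (-0.22, adjusted p = 0.055). In the fits without a control the median lay between -0.24 and -0.22. With the inhibitor none of the 12 passed (limma, 3 with an unadjusted p under 0.05), and their median was 0.09. Of all genes tested, 14.9% were called with the inhibitor.

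**Figure D4:**
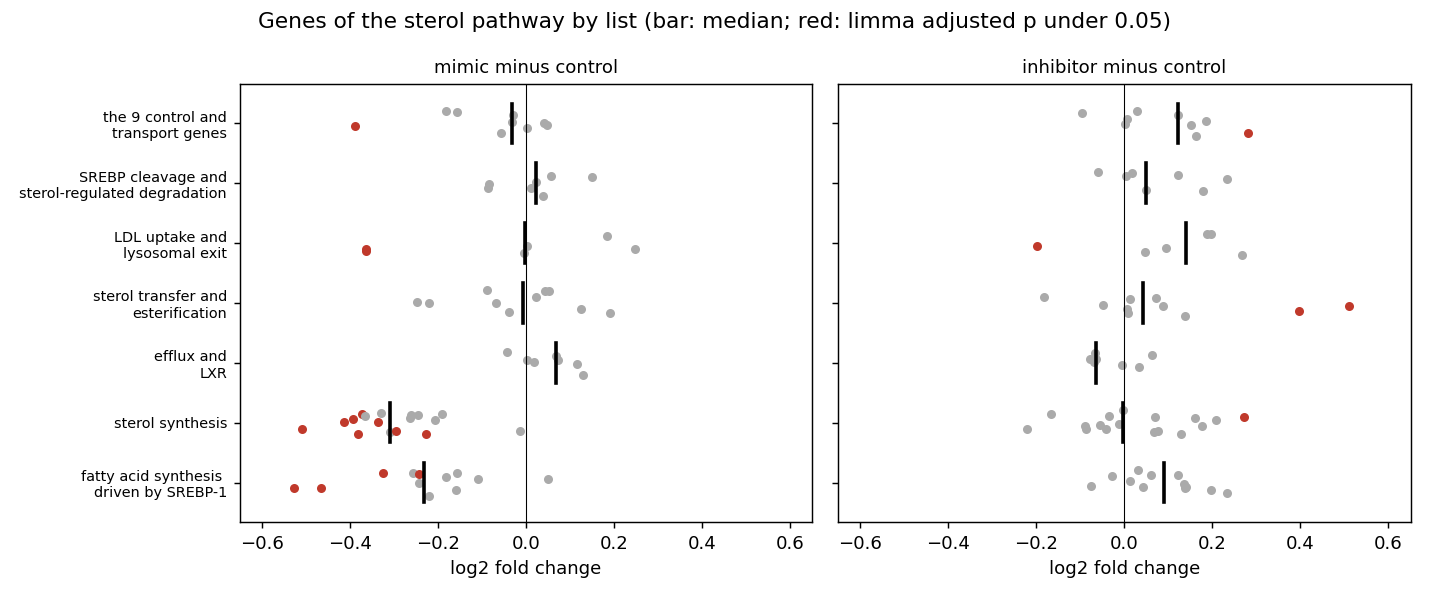
Log2 fold changes of the 9 genes and of the 6 pathway lists (rows) for mimic minus control and inhibitor minus control; each point is a gene, the black bar is the list's median and red marks a limma adjusted p under 0.05. With the mimic the bars of sterol synthesis (-0.31) and fatty acid synthesis (-0.23) lie left of 0, whereas that of the 9 genes is at -0.03.

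The other 4 lists held 2 calls with the mimic, both falls, where 2.45% of all genes tested fell. Of 6 genes of lipoprotein uptake and lysosomal exit, Scarb1, the HDL receptor gene, and Tmem97, whose product binds NPC1, fell by 0.36 each (limma, adjusted p = 0.0264 and 0.00515), and the list's median was -0.00. Tmem97 kept its call in all 9 fits without 1 array, and Scarb1 lost it without control 1, control 2, control 3, mimic 1 or inhibitor 3. Scarb1 also lost its call after median centring. Of 10 sterol transfer and esterification genes none passed (limma, 2 with an unadjusted p under 0.05, median -0.01), and without mimic 3 the sterol carrier genes Scp2 (0.31, adjusted p = 0.0398) and Osbpl9 (0.21, adjusted p = 0.0431) rose. In the uptake and lysosomal list Lipa, the lysosomal acid lipase gene, rose without mimic 3 (0.39, adjusted p = 0.0303), against a difference of 0.25 that did not pass with it. None of 7 genes of SREBP cleavage and sterol-regulated degradation passed (limma, 1 with an unadjusted p under 0.05, median 0.02). None of 7 efflux and LXR genes passed either (limma, 1 with an unadjusted p under 0.05, median 0.07).

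With the inhibitor, 3 of the 59 list genes rose and 1 fell, where 11.1% of all genes tested rose and 3.76% fell. The larger rises were of 2 genes of the transfer and esterification list, and these counts are not read as a property of the lists. Nceh1, which encodes a cholesteryl ester hydrolase, rose by 0.51, with a mean of 4.96 ± 0.07 with the inhibitor and 4.45 ± 0.07 in the controls (SD, n = 3; limma, adjusted p = 0.000803). Stard5, a sterol carrier of the same family as Stard4, rose by 0.40 (limma, adjusted p = 0.0257). Nceh1 kept its call in all 9 fits without 1 array. Stard5 lost it without inhibitor 1 (0.37, adjusted p = 0.0898), inhibitor 3 or any 1 control, and when genes with low values were kept in the test. Npc2, which hands cholesterol to NPC1 in the lysosome, fell by 0.20 (limma, adjusted p = 0.0177), while Npc1 did not pass. The Npc2 call was lost without control 1, control 2 or inhibitor 3. Over all 6 lists 4 genes were called with the inhibitor, against 1 without inhibitor 3 and 11 without mimic 3. Medians with the inhibitor were 0.14 for uptake and lysosomal exit, 0.04 for transfer and esterification, 0.05 for SREBP cleavage and -0.07 for efflux and LXR genes, and none of the last pair of lists passed (limma, 3 of 7 and 0 of 7 with an unadjusted p under 0.05).

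Between mimic and inhibitor, 19.9% of all genes tested were lower with the mimic and 6.91% higher. Of the 59 list genes, 26 were lower and 2 higher. The higher ones were Npc2 (0.38) and the sterol carrier gene Scp2 (0.37; limma, adjusted p = 0.000334 and 0.0177). Nceh1 (-0.73), Scarb1 (-0.55), Stard5 (-0.49), Tmem97 (-0.46) and the lipoprotein receptor gene Lrp1 (-0.26) were lower, as were Erlin1 (-0.32), whose product restrains SREBP, and Fbxw7 (-0.26), which encodes the ligase subunit that clears nuclear SREBP (limma, adjusted p of at most 0.0344). Without inhibitor 1 neither Erlin1 (-0.28, adjusted p = 0.0574) nor Fbxw7 (-0.22, adjusted p = 0.0515) passed. Lrp1 passed in 4 of 9 fits without 1 array and was lost without inhibitor 1 (-0.20, adjusted p = 0.125) or mimic 3 (-0.20, adjusted p = 0.0875). Scp2 passed in 6 of the 9, with losses without mimic 1, inhibitor 2 or inhibitor 3. Npc2, Nceh1, Scarb1, Stard5 and Tmem97 passed in all 9. In sterol synthesis 11 of 17 were lower, with Idi1 (-0.64), Sc5d (-0.57), Cyp51 (-0.49) and Sqle (-0.48) first. In fatty acid synthesis 7 of 12 were lower, with Elovl6 (-0.60), Me1 (-0.59), Acaca (-0.49) and Acly (-0.46) first (limma, adjusted p of at most 0.00249 for these 8). No efflux and LXR gene passed here (limma, 2 with an unadjusted p under 0.05). Lpcat3, a phospholipid remodelling enzyme gene and LXR target, stood at a difference of 0.18, and it passed without inhibitor 1 (0.28, adjusted p = 0.0122) and after quantile normalization.

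The genes whose profile over the 9 arrays was most like that of a called member were ranked by Pearson's r, as a description over arrays that share the same groups and the same outlying arrays. Closest to Stard4 were Asf1b, a histone chaperone gene (r = 0.989), Skp2, a ubiquitin ligase subunit gene of the cell cycle (r = 0.986), and Sqstm1, which encodes the autophagy adaptor p62 (r = 0.981). Asf1b differed from the controls by -0.45 with the mimic and 0.25 with the inhibitor, and Skp2 by -0.74 and 0.35 (log2). Closest to Scap were Sdad1 (r = 0.985), the amino acid transporter gene Slc1a4 (r = 0.985) and Mtmr2 (r = 0.982), and closest to Srebf2 were Sympk (r = 0.967), Neil3 and Srgap1 (r = 0.965 each). Among the 9 genes themselves r over the 9 arrays ran from -0.40 for Srebf1 with Insig2 to 0.86 for Srebf2 with Insig1, and it was 0.81 for Srebf2 with Stard4.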

How the data were processed

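RNA of NIH-3T3 cells was hybridised to 9 Affymetrix whole-transcript arrays, 3 per group. The authors deposited the data as log2 values, and per the submitters' processing notes Partek 6.5 and RMA made them. No genome build is stated in the labels used here. Of 28853 probe sets, 21789 had 1 gene in the platform annotation, 1621 several and 5443 none. Each gene was read from its single-gene probe set with the highest mean, and 19856 of 19938 genes matched RefSeq by name. Genes whose mean lay under the 40th percentile (3.86) were not tested.

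A single limma fit (lmFit, then eBayes, in version 3.58.1 under R 4.3.3) took all 9 arrays with group as the only factor, which left 6 residual degrees of freedom beside 4.37 from the prior. Benjamini-Hochberg adjustment covered all 11963 genes, with a threshold of 0.05. The procedure was tested on simulated data. Precision is limited by how few arrays there are, and nothing says that the triplicates were separate cultures: the p-values then speak of these samples' spread alone, which could be technical. The 9 genes, lists and alternatives were chosen with earlier results of these data known. Named are the 9 genes, Mir33, up to 4 called genes with the largest change per list and comparison, and the 3 genes most like each called one. Pmvk, Hsd17b7, Lpcat3, Osbpl9 and Lipa, called only under an alternative, were named after their values were seen. So was Dhcr7, whose call with the inhibitor came only under an alternative. With the mimic Dhcr7 fell in the main fit (log2 fold change -0.23; limma, adjusted p = 0.0337). Of the list genes, 14 were not analysed here, being under the filter or not read by a probe set of their own. Alternatives were a lower or no filter, quantile normalization, median centring, 6-array fits, a replicate block, an intensity trend, other probe set rules and leaving out arrays. Matplotlib 3.10.9 (Python 3.11.15) drew the figures.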

Additional observations from a re-analysis of the deposited data

How the results depend on the processing

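The fall of Stard4 with the mimic passed the threshold under all 10 alternatives and all 9 fits without 1 array, and the rise of Scap with the inhibitor under the same 10 and in 6 of those 9. With no filter 2 of the 9 genes were called with the inhibitor. Quantile normalization gave 774 genes called with the mimic (425 as reported; 43.3% of them rose, against 31.1%) and 9 list genes called with the inhibitor (4 as reported), gave rises as 55.4% of the calls with the inhibitor (74.7% as reported) and 45.1% of those between mimic and inhibitor (25.8% as reported), and turned the sign of Npc1 with the mimic (0.004), Srebf2 with the inhibitor (-0.021), and Srebf1 (0.015) and Mylip (0.023) between mimic and inhibitor. Median centring gave 231 genes and 8 list genes with the mimic (14 as reported), and -0.006 for Insig2 with the mimic. Fits of 6 arrays gave 248 genes with the mimic and 9 list genes with the inhibitor. Without mimic 3 and inhibitor 1 together there were 911 genes called with the mimic, and 2 members and 9 list genes with the inhibitor. In that fit Npc1 with the mimic was 0.062, Srebf2, Insig1 and Abca1 with the inhibitor were -0.016, -0.037 and -0.010, and Mylip and Abca1 between mimic and inhibitor were 0.046 and 0.003, and Insig2 passed as higher with the mimic than with the inhibitor (0.262). Leaving out 1 array at a time, members called were 1 with the mimic, 0 to 2 with the inhibitor and 2 to 5 between them. All genes called ran from 133 (without control 1) to 582 (without mimic 3) with the mimic, from 974 (without control 1) to 2790 (without mimic 3) with the inhibitor and from 2310 to 3669 between them. List genes called ran from 4 to 18, from 1 to 11 and from 23 to 34. Signs turned for Insig2 (-0.069 to 0.110), Mylip (-0.041 to 0.169) and Npc1 (-0.117 to 0.062) with the mimic, for Srebf2 (-0.016 to 0.056), Insig1 (-0.037 to 0.032) and Abca1 (-0.010 to 0.017) with the inhibitor and for Mylip between them (-0.192 to 0.018). None of these was called. The replicate block gave 9 list genes with the mimic and left the calls of members as they were. The labels do not say whether equal replicate numbers pair the samples, and so few arrays cannot settle it. Of 9 same-number pairs 5 correlated over 0.1, with r from -0.59 to 0.22, and r reached 0.63 for a pair of different numbers. The cause of these shifts was not tested. Abca1 and Mir33, at the low end of the scale, are among the genes where signal over background limits what could be seen. So are the list genes Fbxw7, Vldlr, Abcg4, Gramd1b and Pnpla3, whose group means lay between 3.84 and 4.25. The mimic mean of Nceh1, 4.23, lay in that range too, and its control mean was 4.45.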
